A study of Mus musculus with 2 samples.

Results

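Smooth muscle of the embryonic lung was followed through 10 genes: Acta2, Actg2, Myh11, Mylk, Tagln, Cnn1, Smtn, Lmod1, Des and Myocd. They were taken by symbol, matched by gene identifier to the GENCODE mouse annotation, and all 10 were found among the 43346 mouse genes of both gene tables. All 10 also passed the minimum used for testing, a mean of 1 TPM, together with 14870 genes in total. TPM is the deposited abundance unit, which corrects for transcript length and scales each library to a fixed sum.

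The tissue was whole lung of mouse embryos (Mus musculus, strain B6NCrl) at embryonic day 14.5, with no treatment or genetic change named in the labels. There was 1 group of 2 libraries, biological replicates 1 and 2, from tissue collected on 15 and 17 July. The labels call each sample pooled male and female and also a single lung from pup 1, and both samples carry the same donor number, and how many animals each library holds is uncertain. Every p-value therefore compares these 2 libraries and no condition, and the spread between them may be partly technical.

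Total RNA above 200 nt was used, 10.0 ng per library, with spike-in RNA, and summed expected counts (estimated reads per gene) were 33601136 in replicate 1 and 34535168 in replicate 2. The lung label was matched by its markers: Nkx2-1, the lung epithelial transcription factor, stood at 74.4 and 76.8 TPM, the surfactant gene Sftpc at 2127 and 2184, and the mesenchymal factor Tcf21 at 186 and 182. The libraries differed in genes of heart muscle, and which tissue or cells these transcripts came from was not tested. The summed TPM of 20 heart muscle genes was 798 in replicate 1 and 144 in replicate 2. Of the 17 tested, 15 were called lower in replicate 2, against 0.780% of all tested genes. Nppa, a hormone gene of the atria, fell from 234 counts to 0, which makes it at least 81.5-fold higher in replicate 1 when 3 counts are taken as the floor. In whole tissue, fewer cells of a type and less RNA per cell cannot be told apart.

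In the lung, smooth muscle wraps the growing airways and the vessels. It contracts when calcium and calmodulin switch on myosin light chain kinase, which phosphorylates the light chain of myosin so that it can pull on actin. Most genes of this apparatus are driven by serum response factor (Srf), which binds the CArG box in DNA, and by its coactivator myocardin (Myocd). Acta2 and Tagln appear early in smooth muscle differentiation, while the smooth muscle myosin heavy chain Myh11 and Smtn are regarded as marks of a more mature contractile cell. Several of these genes are also active in other muscle: Des, Myocd and Actc1 are well known from the heart, and Acta2 and Tagln are expressed in the early heart.

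Actins form a family of closely similar coding sequences, so the first 75 coding bases of the 4 muscle actins are shown, from the GENCODE transcripts, 5′ to 3′. Capitals mark bases that differ from Acta2 in an alignment of the coding sequences.
Acta2 (smooth muscle, mainly vascular): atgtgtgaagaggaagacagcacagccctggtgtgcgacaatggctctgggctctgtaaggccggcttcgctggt
Actg2 (smooth muscle, mainly enteric): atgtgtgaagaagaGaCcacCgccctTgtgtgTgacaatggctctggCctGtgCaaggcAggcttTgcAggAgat
Acta1 (skeletal muscle): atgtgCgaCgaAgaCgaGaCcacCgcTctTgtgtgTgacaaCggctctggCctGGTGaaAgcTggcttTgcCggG
Actc1 (heart muscle): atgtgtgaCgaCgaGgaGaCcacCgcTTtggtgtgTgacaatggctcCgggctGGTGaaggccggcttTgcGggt
Over this stretch Actg2 differed from Acta2 at 12 bases, Acta1 at 21 and Actc1 at 16, with bases missing from a row not counted. The coding sequence of Actg2 is 1128 nt against 1131 nt for Acta2. The alignment places a gap in the Actg2 row, so its later bases are out of register with the other rows as printed. Over the whole aligned coding sequence Acta2 was 84.4% identical to Actg2, 82.6% to Actc1 and 82.0% to Actg1. The longest run of identical bases was 29 with Actg2, 23 with Actc1 and 56 with Actg1. None of the 100-nt windows of the Acta2 or Actg2 transcripts was found in a transcript of another gene, and the deposited posterior SD of the gene count was 0 for both. By this measure the counts of the 2 smooth muscle actins were not shared with each other or with the other actins.

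Myocardin acts through the CArG box, so the promoters of the members were searched for it on both strands in the RefSeq promoter table (GRCm38.p6, 250 bases before to 50 after the start). Of the 10 members, 6 had an entry: Acta2, Cnn1, Mylk, Lmod1, Smtn and Des. None of the 6 held a full CArG box, which 1.63% of the 32851 promoters in the table held. With 1 mismatch allowed, 1 of 6 held one, against 9.98% of all promoters. That promoter was Acta2, with a pair of boxes that start 84 and 34 bases before the RefSeq start. Each is shown in a 30-base window on the coding strand, with the box in capitals.
Acta2 window at chr19:34255438-34255467: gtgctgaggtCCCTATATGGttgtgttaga
Acta2 window at chr19:34255388-34255417: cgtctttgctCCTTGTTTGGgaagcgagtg
The GENCODE start of Acta2 lies 217 nt from the RefSeq start, so these windows fall inside its first annotated exon in GENCODE. A match describes letters in a window of 300 bases, and the lack of one says nothing about the factor.

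The thin filament gene Acta2, smooth muscle alpha actin, was the highest of the 10. It stood at 727 TPM in replicate 1 and 734 TPM in replicate 2 (731 ± 4.89, SD, n = 2), from 27284 and 27649 counts. Ordered by mean TPM it took place 145 among protein-coding genes, and it carried 58.1% and 57.2% of the summed TPM of the 10 genes. Acta2 lies at chr19:34241090-34255590 on the minus strand (GRCm38).

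Actg2, smooth muscle gamma actin, came next at 161 and 165 TPM (163 ± 2.86, SD, n = 2), from 4371 and 4515 counts, at chr6:83512905-83536265 on the minus strand. The mean level of Acta2 was 4.48 times that of Actg2. Actg2 is best known from gut and bladder, and both libraries held it at a similar level.

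The non-muscle actins Actb and Actg1 made up most of the actin family. Actb carried 67.5% of the summed TPM of 6 actin genes in replicate 1 and 67.0% in replicate 2, Actg1 21.3% and 23.3%, Acta2 7.51% and 7.21%, and Actg2 1.66% and 1.62%. The heart gene Actc1 stood at 191 TPM in replicate 1 and 85.3 TPM in replicate 2, so that in replicate 1 it was above Actg2 and in replicate 2 below it. Among the 4 muscle actins alone the share of Acta2 was 67.3% in replicate 1 and 74.5% in replicate 2, while Actc1 had 17.7% and 8.65%. Acta1 was low at 1.92 and 0.800 TPM, from 57 and 24 counts. The share of Acta2 among muscle actins thus moved with the level of Actc1 while its own TPM stayed close.

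The motor of the thick filament, Myh11 (smooth muscle myosin heavy chain, chr16:14194535-14291372, minus strand), stood at 50.6 and 53.4 TPM (52.0 ± 1.96, SD, n = 2). Its counts were 7376 and 7810. Among 4 myosin heavy chain genes it carried 18.1% of the TPM in both libraries. The non-muscle heavy chain Myh10 was higher, at 132 and 145 TPM, as was Myh9 at 68.7 and 69.7 TPM, and Myh14 was lower at 28.4 and 26.6 TPM.

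Mylk, the kinase that starts contraction (chr16:34745210-35002420, plus strand), was measured at 54.4 and 56.1 TPM (55.3 ± 1.20, SD, n = 2) from 8882 and 9169 counts. It made up 96.1% and 98.8% of the TPM of its family of 4. The rest was almost entirely Mylk3, the kinase of heart muscle, at 2.16 and 0.650 TPM. Mylk2, the skeletal muscle kinase, was not detected, and its 0 counts allow for up to 3 in each library (counting error only), and Mylk4 had 1 and 2 counts.

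Tagln, the actin-binding protein transgelin or SM22 alpha (chr9:45929619-45936058, minus strand), stood at 87.2 and 95.2 TPM (91.2 ± 5.67, SD, n = 2), from 2892 and 3170 counts. Annotated genes on the opposite strand, mainly Gm48529 and to a lesser extent Pcsk7, share 33.2% of the 100-nt windows of its transcript. The sources used here do not say whether counting used strand, so part of this level could come from the other strand. Pcsk7, at 12.7 and 14.0 TPM, was far below Tagln, and Gm48529 has no entry under its identifier in the tables. The more broadly expressed Tagln2 stood at 314 and 312 TPM, and the neuronal Tagln3 at 3.97 and 4.23 TPM, which left Tagln with 21.5% and 23.1% of its family.

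Cnn1, calponin, which binds actin and restrains the myosin ATPase, stood at 34.1 and 34.5 TPM (34.3 ± 0.325, SD, n = 2), from 1724 and 1754 counts (chr9:22099216-22109630, plus strand). Its paralogs outside contractile smooth muscle were far higher, Cnn3 at 540.4 and 549 TPM and Cnn2 at 276 and 275 TPM. Cnn1 therefore carried 4.01% and 4.02% of the calponin TPM.

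Smtn, smoothelin, a cytoskeletal protein of contractile smooth muscle (chr11:3517523-3540612, minus strand), stood at 80.5 and 87.2 TPM (83.9 ± 4.74, SD, n = 2), from 5269 and 5767 counts. The related gene Smtnl2 was at nearly the same level, 83.7 and 97.9 TPM, and Smtn carried 49.0% and 47.1% of the TPM of its family. Smtnl1 had 3 and 7 counts.

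Des, the muscle intermediate filament desmin (chr1:75360329-75368579, plus strand), stood at 36.1 and 34.4 TPM (35.2 ± 1.21, SD, n = 2), from 2327 and 2172 counts. Vimentin (Vim), the filament of mesenchymal cells, was at 682 and 695 TPM, and Des carried 4.88% and 4.57% of the TPM of 5 intermediate filament genes. As a share of their expected counts, which are not corrected for length, it carried 9.43% and 8.80%. Nes stood at 18.6 and 21.2 TPM, while Gfap and Prph were near or below 1 TPM.

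Lmod1, smooth muscle leiomodin, which nucleates actin filaments, was the lowest of the 10 at 2.99 and 2.54 TPM (2.77 ± 0.318, SD, n = 2), from 257 and 219 counts (chr1:135324807-135368065, plus strand). Its share of the leiomodin family was 79.9% in replicate 1 and 95.1% in replicate 2. Lmod2, the leiomodin of heart muscle, had 20 and 2 counts, and Lmod3, that of skeletal muscle, had 13 and 4. The family share of Lmod1 was thus higher in the library in which Lmod1 itself had fewer counts.

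Myocd (chr11:65176561-65269989, minus strand) was listed at 18.0 and 20.6 TPM (19.3 ± 1.82, SD, n = 2), from 1277 and 1287 counts. Its relatives Mrtfa, at 20.2 and 23.0 TPM, and Mrtfb, at 27.4 and 27.2 TPM, are broadly expressed coactivators of Srf, and Myocd carried 27.5% and 29.1% of the TPM of the 3 genes. Both its level and this share include Myocd-205, a model of 377 nt described with the isoforms, without which they were 12.2 TPM in each library and 20.4% and 19.6%. Their partner Srf itself stood at 6.28 and 7.64 TPM, below each of them.

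**Figure D1:**
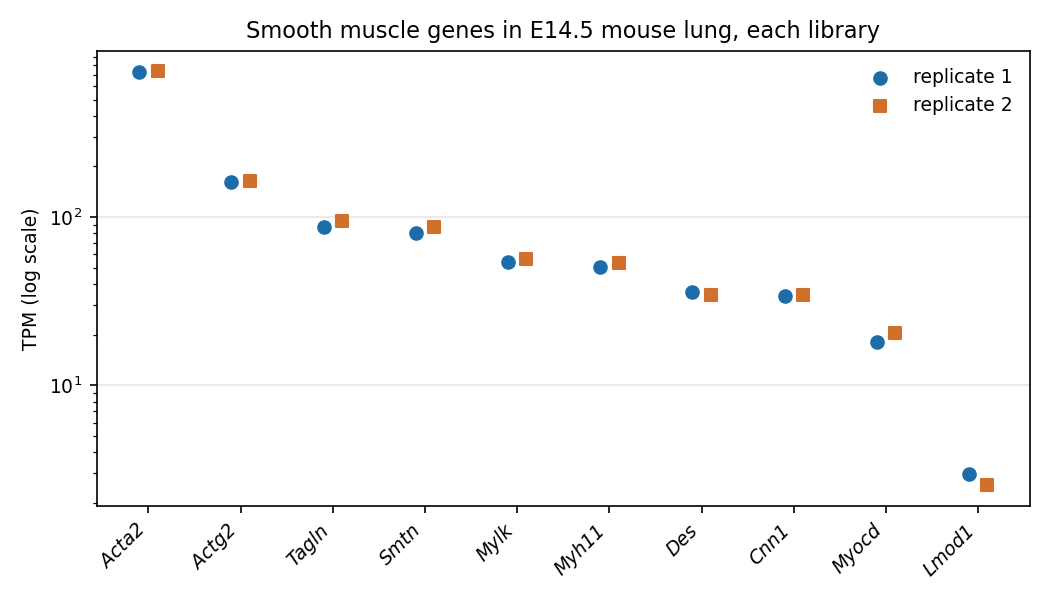
TPM of the 10 smooth muscle genes (log axis) in each of the 2 libraries, circles for replicate 1 and squares for replicate 2, ordered by mean TPM. Acta2 lies at 727 and 734 TPM, far above the rest, and Lmod1 lowest at 2.99 and 2.54 TPM.

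In order of mean TPM the genes ran Acta2, Actg2, Tagln, Smtn, Mylk, Myh11, Des, Cnn1, Myocd and Lmod1, with a median of 53.6 TPM against 4.10 TPM over all protein-coding genes. Des and Cnn1 changed places between the libraries. Tagln was above Smtn in each library, although their ranges over the 2 libraries overlapped, and all other neighbours had separate ranges. Within each library the highest member was 243 and 289 times the lowest. Together the 10 genes had a summed TPM of 1252 in replicate 1 and 1283 in replicate 2, and 0.193% and 0.191% of all mouse gene counts.

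**Figure D2:**
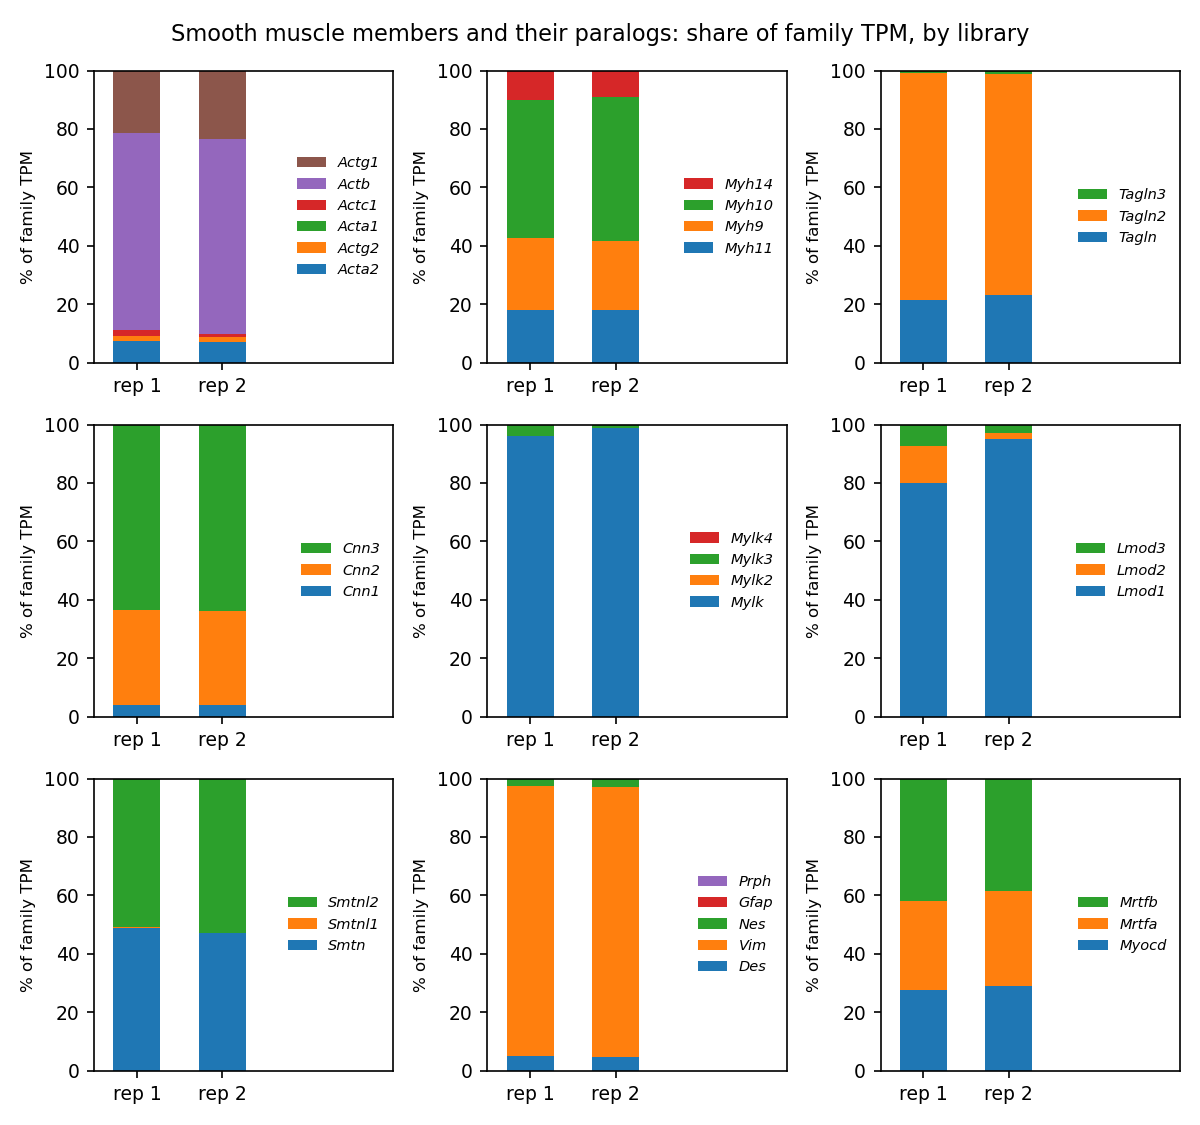
Share of the summed TPM of each gene family (percent, bars from 0 to 100) carried by the members and their paralogs in replicates 1 and 2. Mylk (96.1% and 98.8%) and Lmod1 (79.9% and 95.1%) dominate their families, whereas Acta2, Actg2, Cnn1 and Des carry less than 10% of theirs.

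The comparison of replicate 2 with replicate 1 shows how far the libraries differed in smooth muscle. None of the 10 members was called, that is, none passed an adjusted p of 0.05 together with a 2-fold ratio, where 1.14% of the 14870 tested genes were called by the exact binomial test, 0.356% as higher and 0.780% as lower. By the same test 2 members passed the adjusted p at any size, Acta2 and Des, both lower in replicate 2, against 11.5% of tested genes lower in this way, 11.0% higher and 22.5% in either direction. edgeR's exact test, run with a common dispersion so that the spread between libraries counts as error, called 0 of 10 members against 0.713% of all tested genes. The dispersion was estimated from the same 2 libraries that were compared, so a difference of typical size could not pass. By that test 0.780% of tested genes passed the adjusted p at any size, and none of the 10 members had an adjusted or an unadjusted p under 0.05. Of the 14870 tested genes, 568 had an unadjusted p under 0.05.

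Ratios here are TMM-scaled count ratios on the log2 scale, replicate 2 over replicate 1, with exact intervals for counting error. The median over the members was -0.03, with 3 above and 7 below 0. All members lay between -0.29 and 0.07, inside the central range of the tested genes, from -0.70 to 0.59. Directions this close to 0 turn with the scaling: 7 of the 10 genes (Acta2, Actg2, Cnn1, Myocd, Mylk, Lmod1 and Des) were lower in replicate 2 under TMM and higher under spike-in scaling, which moved the median gene by 0.34. The deposited TPM also shifted, by a median of 0.06 over the tested genes, and was higher in replicate 2 for 8 of the 10 members.

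Des had the ratio of -0.16 (interval -0.25 to -0.08), with an adjusted p of 0.00181 by the exact binomial test. For Acta2 it was -0.04 (-0.07 to -0.02), with an adjusted p of 0.00389 by that test. The difference in Acta2, a ratio of 0.970, is under the spread of a typical gene, since 75.0% of the tested genes had a larger absolute ratio. For Des that share was 32.1%. Lmod1 had the lowest ratio, -0.29 (-0.56 to -0.03), and did not pass the test (adjusted p of 0.0975, exact binomial test).

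The other 7 did not pass either. Smtn came closest at 0.07 (0.01 to 0.12), with an adjusted p of 0.0588 by the exact binomial test, and Tagln had the same ratio with an interval from 0.00 to 0.14. Myh11 stood at 0.02, Mylk and Actg2 at -0.02, Cnn1 at -0.04 and Myocd at -0.05.

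Heart muscle genes moved far more between the same libraries. Actc1 was lower in replicate 2 by the log2 ratio of -1.22 (-1.29 to -1.15) and Mylk3 by -1.57 (-2.11 to -1.07), and both were called. Lmod2, at -3.10 (-6.53 to -1.34), was under the minimum level and was not tested. The median ratio of the 17 heart genes tested was -3.53, with Myl7 at 269.9 and 17.3 TPM and Myh6 at 40.6 and 1.59 TPM. Of these 17, 15 were called lower, and Myh7 and Pln were not called. Myh7 stood at 1.16 and 1.83 TPM (ratio 0.03) and Pln at 2.97 and 2.78 TPM (-0.16). Of the members named above as active in the heart, Acta2 (-0.04), Des (-0.16) and Myocd (-0.05) had fewer TMM-scaled counts in replicate 2. Tagln (0.07) had more in that library, the one with less RNA of heart muscle genes. Actg2, Cnn1, Mylk and Lmod1, which were not named for heart, also had fewer. All of these members were above 0 under spike-in scaling, and the part of heart muscle RNA in their values was not tested. The lists for skeletal muscle and for the foregut held less RNA. Skeletal muscle genes summed to 28.9 and 14.7 TPM, with 3 of 5 tested called lower (Myl1, Ckm and Acta1) against 0.780% of all tested genes. Mylpf, the highest of that list by mean TPM, went the other way at 6.26 and 8.72 TPM. Its log2 ratio was 0.25 (-0.22 to 0.73), that of Tnnt3 was -0.42 (-1.32 to 0.45), and neither was called. The defining factors were at or near 0, Myod1 with 0 and 3 counts, Myog with 0 and 1, Myf5 with 3 and 10 and Myf6 with 5 and 3. Genes of the foregut and its wall summed to 39.0 and 44.2 TPM, most of it Kit (32.3 ± 3.19 TPM, SD, n = 2), and 0 of 3 tested were called. These genes include keratins of epithelium, so their sum is no measure of foregut muscle. Of their remaining members, Krt15 stood at 3.47 and 3.18 TPM, Sox2 at 2.85 and 3.71 TPM, and the gut mesenchyme factor Nkx2-3 had 0 counts in both libraries. Also below the level tested, Barx1 had 8 and 20 counts, Pitx1 1 and 12 and Hand1 0 and 2. Krt4, with 45 and 36 counts, and Trp63, with 92 and 61, were below that level too and had fewer in replicate 2.

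**Figure D3:**
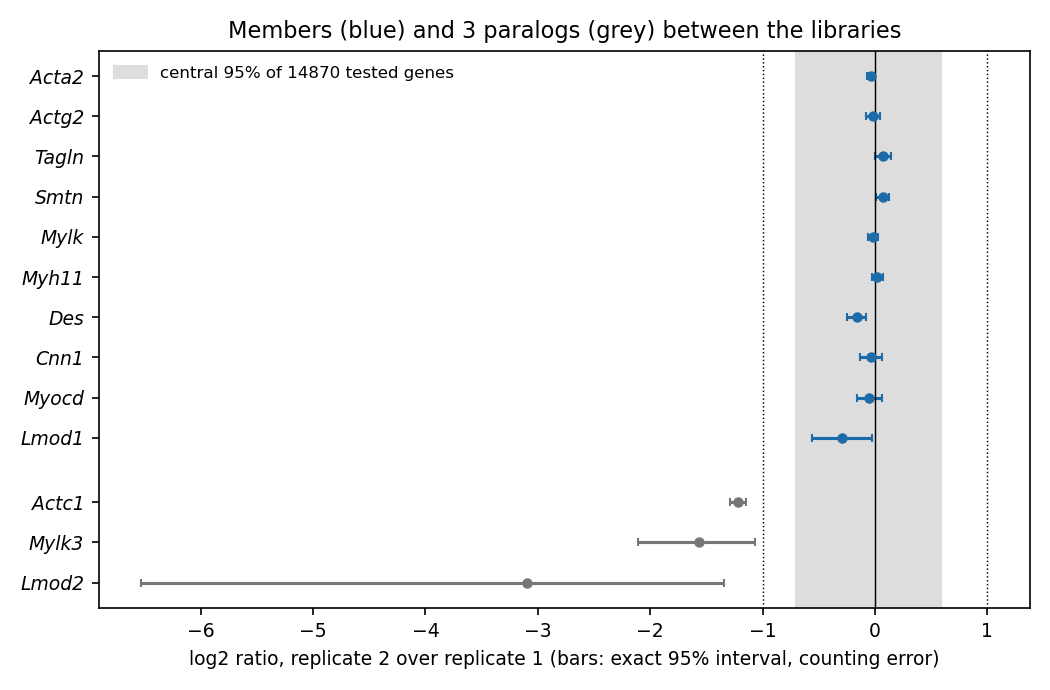
Log2 ratio of scaled counts, replicate 2 over replicate 1, for the 10 members (blue) and 3 heart-expressed paralogs (grey), with exact 95% intervals that cover counting error only. The grey band is the central range of all tested genes (-0.70 to 0.59), dotted lines mark 2-fold, and all 10 members lie inside the band while Actc1, Mylk3 and Lmod2 lie below it.

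Myocardin is known in a long form that starts in the first exon, found mainly in heart, and a shorter form that starts downstream through an extra early exon, found mainly in smooth muscle. A separate coding exon near the 3′ end is also skipped in part of the mRNA. The deposited tables held 6 Myocd models. An early junction separates Myocd-205 from Myocd-203, and a later exon separates Myocd-203 from Myocd-202. Each is shown because the counts of these 3 models turn on it.
Myocd-205, junction into the extra exon, capitals mark that exon: aaggcttaataccgcACTAATCCAAGCTAC
Myocd-205, junction out of the extra exon: TACTGCAAAGCCTTGcactgaaaggtccaa
Myocd-203, the same place without the exon: aaggcttaataccgccactgaaaggtccaa
Myocd-203, coding exon absent from Myocd-202: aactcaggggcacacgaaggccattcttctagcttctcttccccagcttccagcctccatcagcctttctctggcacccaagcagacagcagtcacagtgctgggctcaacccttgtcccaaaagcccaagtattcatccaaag
The extra exon is 44 nt long at chr11:65228818-65228861, and the coding exon, exon 11 of 14, is 144 nt long at chr11:65184488-65184631. Myocd-205 ends with the exon after the extra one, so reads from the rest of an mRNA that contains it are assigned to other models.

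Myocd-203, the longest model (5114 nt), took nearly all reads, 1218 in replicate 1 and 1126 in replicate 2, with posterior SDs of 95.4 and 64.7. It carried 60.5% and 48.7% of the TPM of the gene, and a mean of 91.4% of its counts. Myocd-202, without the 144-nt exon, had 0.0100 and 79.2 counts with posterior SDs of 96.0 and 62.7, so its share of 0% and 3.55% did not differ by more than the uncertainty of the assignment. The deposited posterior mean gave Myocd-202 5.77% and 4.76%.

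Myocd-205, the model with the extra exon, carried 32.2% of the TPM in replicate 1 and 40.5% in replicate 2. This came from 36 and 52 counts, with posterior SDs of 5.72 and 6.14, or 2.82% (exact interval 1.98 to 3.88) and 4.04% (3.03 to 5.26) of the counts of Myocd. The transcript is only 377 nt long, and division by that length turns a few reads into a large share of TPM. The remaining models were small: Myocd-204 carried 6.62% and 6.24%, Myocd-206 0.700% and 0.940%, and Myocd-201 had 0 counts.

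Without Myocd-205 the level of Myocd was 12.2 TPM in both libraries, a way of summing chosen after its share was seen. The difference between 18.0 and 20.6 TPM at the gene level therefore lay within this 1 short model, while the counts of the gene were nearly equal. With either value Myocd stayed between Cnn1 and Lmod1 in the order of levels.

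Mylk gives rise to a long kinase of many tissues, a shorter kinase that is the main form in smooth muscle, and telokin, a small protein from the 3′ end of the gene. The deposited tables held 2 of the 8 Mylk models in GENCODE M21. Mylk-201, a long model (7824 nt), carried 91.4% and 91.0% of the TPM, from 8571 and 8833 counts. Mylk-202, a retained-intron model at the 5′ end, carried 8.60% and 8.99%, from 311 and 336 counts (a mean of 3.59% of the counts of Mylk), with posterior SDs of 4.03 and 4.26. Short models such as Mylk-203, which covers the 3′ end with a coding sequence of 477 nt at chr16:34994807-35001363, were not among the tables' transcripts. Reads from such forms, where present, would be counted in Mylk-201, so the forms cannot be told apart here. Division by the length of Mylk-201 would then understate the TPM of Mylk, and its place next to Myh11 rests on that length.

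Myh11 is spliced near its 3′ end into SM1, with a long tail, and SM2, in which a small extra exon brings an earlier stop. The tables held 1 of the 4 models in GENCODE M21, Myh11-201, with a coding sequence of 5916 nt. In Myh11-202 an extra exon of 39 nt at chr16:14198050-14198088 shortens the coding sequence to 5814 nt. Its coding part is shown, since reads that contain it would mark the short tail.
Myh11-202, coding part of exon 41: agggccccccccacaggaaacttcgcag
With 1 model in the tables, all 7376 and 7810 counts were given to Myh11-201, and the tail forms cannot be told apart.

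The isoforms of Actg2 and Smtn were looked at after their values were seen. Actg2-201 carried 78.2% and 80.1% of the TPM of Actg2 and Actg2-202, which has another first exon and the same coding length, 21.2% and 19.9%. Their posterior SDs of 374 and 286 counts are large beside the 894 and 864 counts of Actg2-202. For Smtn, Smtn-202 was the main model at 78.5% and 76.7%. The short form that starts inside the gene, Smtn-201, carried 1.00% and 2.31%, from 29.6 and 74.2 counts with posterior SDs of 10.1 and 16.9. Acta2, Tagln, Cnn1 and Lmod1 each had 1 model in the tables.

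**Figure D4:**
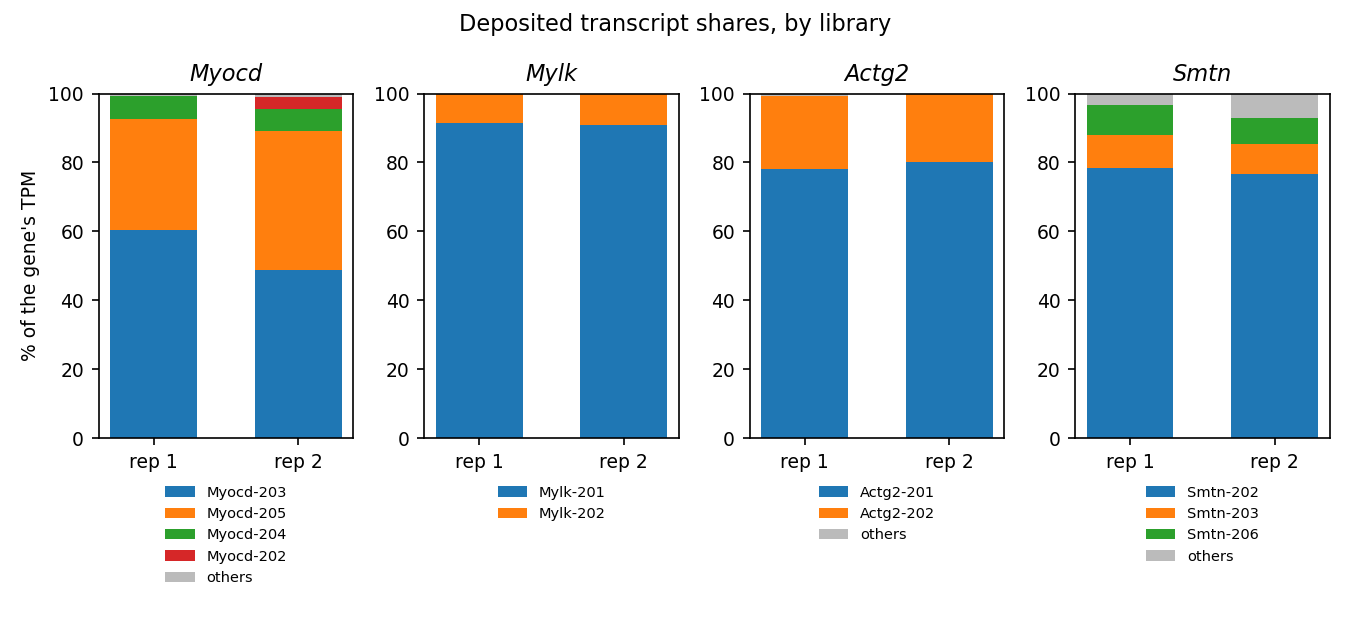
Percent of the TPM of each gene carried by its deposited transcripts in replicates 1 and 2, for Myocd, Mylk, Actg2 and Smtn, with models under 3% in both libraries drawn together in grey. The long models Mylk-201, Actg2-201 and Smtn-202 lead in both libraries, and Myocd-205 takes 32.2% and 40.5% of Myocd.

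Further genes of the contractile apparatus were present at 1 TPM or more in both libraries, 24 of 24 on the list. The essential light chain Myl6 stood at 882 and 914 TPM, tropomyosin Tpm1 at 568 and 512, filamin Flna at 375 and 409 and the regulatory light chain Myl9 at 349.8 and 320.0. None of the 24 was called. At any size 5 were higher and 9 lower in replicate 2 by the exact binomial test, 58.3% of the list against 22.5% of all tested genes, and their median count of 4219.8 was above the 906 of all tested genes. By edgeR's exact test 0 of the 24 had an unadjusted p under 0.05, against 568 of all 14870 tested genes. The median ratio of the list was -0.08, and of the 4 genes named Myl9 (-0.19) and Tpm1 (-0.18) passed as lower, Flna (0.08) as higher. Under spike-in scaling, which adds about 0.34 to each ratio, the first pair would be above 0.

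Regulators of the smooth muscle programme were detected for 23 of 24 genes, with Tbx18 below the minimum at 0.610 and 0.340 TPM. The mesenchymal factor Foxf1 was the highest at 131 and 146 TPM, followed by Tbx4 at 53.5 and 59.4, Tbx5 at 36.1 and 39.3 and Mef2a at 36.9 and 35.7. Tead1, which binds muscle promoters, stood at 20.4 and 21.8 TPM, and Klf4, a repressor of contractile genes, at 3.63 and 4.13 TPM. None of the 23 was called, and 3 passed at any size as higher and 4 as lower, 30.4% against 22.5% of all tested genes. Among those named, Srf (ratio 0.23, adjusted p of 0.0305) and Foxf1 (0.10, adjusted p of 0.000895) were higher and Mef2a (-0.11, adjusted p of 0.00832) lower by the exact binomial test. By edgeR 0 of the 23 passed the adjusted p, and 2 had an unadjusted p under 0.05, against 568 of all 14870 tested genes.

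Receptors, channels and enzymes of contraction and relaxation were detected for 23 of 24 genes. Rhoa, a small GTPase that promotes contraction, was at 250.5 and 267 TPM. The endothelin receptors Ednra, at 110.0 and 118 TPM, and Ednrb, at 101 and 96.2 TPM, and the nitric oxide receptor subunit Gucy1a1, at 91.8 and 89.6 TPM, followed. The muscarinic receptor Chrm3 was the exception at 0.230 and 0.220 TPM. None was called. At any size 0 of 23 passed as higher and 7 as lower, 30.4% against 22.5% of all tested genes (11.0% higher and 11.5% lower), with a median count of 1632 and a median ratio of -0.07. By edgeR 0 passed the adjusted p, and 1 had an unadjusted p under 0.05, against 568 of all 14870 tested genes.

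Of 20 genes used to tell airway from vascular smooth muscle and pericytes, 18 were detected in both libraries. Ntrk3 and Map3k7cl were below 1 TPM in each. Foxf1, given above, and elastin (Eln), at 117 and 119 TPM, were the highest, followed by Npnt at 71.4 and 67.9 TPM and Mcam at 68.2 and 67.1 TPM. Several are shared with fibroblasts or endothelium, and whole tissue does not assign the members' RNA to either muscle. The following are from outside the naming rule, chosen after their values were seen. Of the airway side, Hhip stood at 61.6 and 58.0 TPM and Lgr6 at 9.42 and 8.82 TPM. Pericyte genes spanned a similar range, with Pdgfrb at 49.5 and 50.6 TPM, Kcnj8 at 14.1 and 12.2 and Rgs5 at 6.93 and 7.12. Cspg4 stood at 6.02 and 7.44 TPM and Abcc9 at 4.48 and 3.75. Of the vascular side, Notch3 was at 14.7 and 16.4 TPM and Heyl at 28.9 and 28.1 TPM. None of the 18 tested was called. At any size 2 passed as higher and 9 as lower, 61.1% of those tested against 22.5% of all tested genes (11.0% higher and 11.5% lower), with a median ratio of -0.08. Their median count was 2041, against 906 over all tested genes. By edgeR 0 of the 18 had an unadjusted p under 0.05, against 568 of all 14870 tested genes.

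Of the 24 paralogs, 15 were detected in both libraries and 18 were tested. Those called were 4, all lower in replicate 2: Actc1, Acta1, Mylk3 and Prph, where 0.780% of all tested genes were called lower. At any size 2 were higher and 5 lower, 38.9% of the 18 against 22.5% of all tested genes, Actg1 (0.14) and Smtnl2 (0.19) being the higher pair. edgeR called 2 of the 18, against 0.713% of all tested genes. Heart muscle genes, given above, moved with Actc1 and Mylk3, and their part in these calls was not tested.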

How the data were processed

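For each of 2 libraries the authors deposited gene and transcript tables which, per the file headers, hold expected counts, TPM, FPKM, each transcript's percent of its gene, posterior means, posterior SDs and interval bounds (taken here as scores of the assignment). The deposited read-me files name mm10 and GENCODE M4; the aligner, the quantifier and the use of strand: not given in the sources used here. Names, exons and coordinates (1-based, GRCm38) came from GENCODE M21, which matched 42462 of 43346 genes. Effective length was length minus 99 nt, hence the 100-nt windows.

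Expected counts were rounded, scaled by TMM (edgeR 4.0.16, R 4.3.3) over genes with mean TPM of 1 or more, and compared by an exact two-sided binomial test (scipy 1.17.1, summing outcomes no likelier than that observed) with Benjamini-Hochberg adjustment over 14870 genes. Calls needed an adjusted p under 0.05 and 2-fold. Ratios add 0.5 to each count. Intervals are exact at 95% and cover counting error only, as does the floor of 3 counts. edgeR's exact test used a common dispersion estimated over both libraries (biological coefficient of variation 9.582%). Alternatives changed the scaling (including DESeq2 1.42.0 size factors), filter, test, pseudocount and unit. The test was checked on simulated counts. Sequences came from GENCODE M21 transcripts and the RefSeq promoter table.

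The members and lists were chosen with earlier results of these data known. Named genes were all members and paralogs, the 4 highest of each other list with its called genes (at most 6), and Srf, Mrtfa, Mrtfb, Tead1 and Klf4. Of the heart, skeletal muscle and foregut genes, a few are given.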

Additional observations from a re-analysis of the deposited data

How the results depend on the processing

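No member was called under any scaling, filter or test run (the filter at mean TPM of 10 leaves out Lmod1 and was not used for the members). The number of all genes called, 169, became 290 with spike-in scaling, 538 without a filter, 16 at mean TPM of 10 or more, 101 with protein-coding genes only and 106 with edgeR's exact test, all of which were among the 169. Genes of the context lists called fell from 20 to 9 at mean TPM of 10 or more, where fewer genes are tested. Members past the adjusted p at any size went from 2 to 9 with spike-in scaling and to 0 with edgeR. Spike-in scaling raised the share of calls higher in replicate 2 from 31.4% to 70.0%. It reversed the log2 ratio of Acta2 (0.30), Actg2 (0.33), Cnn1 (0.30), Myocd (0.29), Mylk (0.33), Lmod1 (0.05) and Des (0.18). The deposited TPM with a pseudocount of 1 reversed Acta2 (0.01), Actg2 (0.04), Cnn1 (0.02), Myocd (0.18) and Mylk (0.04). Which scaling is right was not tested. Chosen after seeing the data, a binomial p taken as the doubled smaller tail called 164 genes, each among the 169, and none of the members. As shares of expected counts in place of TPM, Des went from 4.73% to 9.12% of its family and Myocd-205 from 36.4% to 3.43% of Myocd. The count of member promoters with a CArG box went from 0 to 1 with a mismatch allowed. No paired analysis was possible because there is 1 group. With 2 libraries, leaving out either one leaves a level and no comparison. Depth limits low values such as Lmod1 (257 and 219 counts) and Myocd-205 (36 and 52 counts).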

Other observations

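A few values outside the comparisons above were singled out after they were seen. Ntrk3, a neurotrophin receptor gene on the airway and vascular list, had 42 counts in replicate 1 and 8 in replicate 2 (0.690 and 0.160 TPM), below the level tested. Agtr1a, the angiotensin receptor of vascular smooth muscle, had 137 and 77 counts, a log2 ratio of -0.89 (-1.32 to -0.48), and passed the adjusted p (0.000178, exact binomial test) but not the 2-fold limit. The retained-intron models of Des, Des-202 and Des-203, carried 1.45% and 0.220% of its TPM in replicate 1 and 3.96% and 0.880% in replicate 2, from 8.61 and 1.21 counts against 22.4 and 4.61 counts, with posterior SDs of 9.24 and 11.2 for Des-202.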
